A study of Mus musculus with 20 samples.

Results

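The gradient described here runs across the epididymal fat pads of 10 obese male mice in which Tnf was deleted from myeloid cells, 10 of the 20 arrays of the series. It was followed with Adgre1, which encodes F4/80, the surface protein that marks mouse macrophages. The log2 signal of each named probe set was centred on its mean in each of 2 batches and correlated with the centred Adgre1 signal over these 10 mice. The sample titles number the batches and do not say what was batched. Of 19571 probe sets with a gene symbol other than Adgre1, 861 (4.4%) rose with Adgre1 at a Pearson r of 0.8 or more and 486 (2.48%) fell with it at −0.8 or less. The value 0.8 is a round number that no gap in the data marks: the last member inside it was Zdhhc23 (r of 0.8002) and the first outside it Gramd1b (0.7999), and on the falling side Zfp322a (−0.80005) and Zfp120 (−0.79996). The genes were thus selected on their correlation with Adgre1 in these mice, which is given as a description without a test, and tests were made on the 10 control mice and on differences between genotypes.

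All mice were male C57BL/6 littermates, carried floxed Tnf alleles (TNF-α Flox/Flox) on both chromosomes and ate chow until 10 weeks of age, then a purified diet with 40% of its energy from fat for 18 weeks, up to sampling at 28 weeks. The 10 cre mice also carried LyzMcre+/-, which drives recombination in macrophages but also in other myeloid cells such as neutrophils. The 10 wt mice were LyzMcre-/- and so are a control for Cre and deletion together, with the floxed alleles shared. Each batch held 5 mice of either genotype.

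In obese fat, macrophages gather around dying adipocytes, take up their lipid in lysosomes and signal to the surrounding cells, and TNF is a main product of theirs that acts on adipocytes. A whole fat pad gives the RNA of adipocytes, vessels, stromal cells and immune cells in 1 mixture. A rise of macrophage genes in such a sample cannot tell more macrophages from more RNA per macrophage, and each signal is relative to the rest of its array.

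Adgre1 ranged from 10.66 to 13.91 with a median of 12.68 on the log2 scale over the 10 cre mice, which is 9.53-fold from the lowest to the highest. In wt mice it ranged from 11.41 to 14.28 with a median of 12.55. The cre mice numbered 9 and 7 stood apart at 10.66 and 11.01, below every wt mouse, while the other 8 cre mice began at 12.22 and lay inside the wt range. The mean was 12.52 ± 1.02 (SD, n = 10) in cre and 12.79 ± 0.86 (SD, n = 10) in wt, a difference of −0.28 (95% interval −1.16 to 0.61) that did not pass an exact two-sided permutation test of genotype within batches (p = 0.518). It was −0.67 in batch 1, which holds both low mice, and 0.12 in batch 2.

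**Figure D1:**
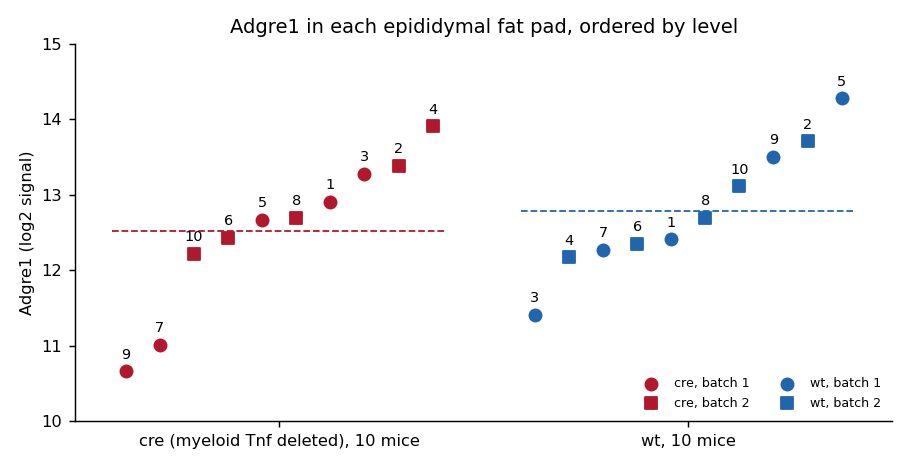
Log2 signal of Adgre1 in each of 10 cre (red) and 10 wt (blue) mice, ordered by level within genotype. Circles are batch 1 and squares batch 2, numbers are replicate numbers, and dashed lines are group means (12.52 and 12.79). Cre mice 9 and 7 lie at 10.66 and 11.01, and the next cre mouse at 12.22.

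Since 2 mice set the low end of the gradient, the correlations on which the description turns are followed by their value over the other 8 mice. Cre 7 and 9 were both of batch 1. The other 8 were thus all 5 cre mice of batch 2 and cre 1, 3 and 5 of batch 1. Those of batch 1 had Adgre1 of 12.67 to 13.28. Where a value changes over 8 mice, the 2 low mice, the batch and the narrower range cannot be told apart. Without cre 7 and 9, 279 of the 861 rising genes (32.4%) and 161 of the 486 falling genes (33.1%) were still at 0.8 or beyond, 857 and 486 kept their sign, and the median r was 0.72 and −0.74. Of all 19571 named probe sets, 493 (2.52%) were at 0.8 or more over these 8 mice and 442 at −0.8 or less. The 8 mice had also served to select the genes, so kept signs and high r are in part built in. The 4 genes that changed sign were Steap3, Pltp, Capg and Cdipt, singled out for that. Cre 9 also held the most red-cell RNA: the mean of 7 erythroid genes was 9.45 there and 5.81 to 6.84 in the other cre mice, and the haem synthesis gene Alas2 read 15.48 against a next value of 11.36. The part of blood in the results was not tested, but no statement below over 8 mice includes cre 9. Genes of seminal vesicle, which lies near this fat pad, reached a list mean of 6.58 in cre 3, against at most 5.41 in the other cre mice. Cre 3 also had the highest batch-centred Adgre1 of the cre mice (1.175), and the part of this tissue was not tested. Liver genes varied from 7.92 to 12.39 as a list mean, and the list did not follow Adgre1 (median r of 0.07 over 13 genes, lowest −0.83).

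**Figure D2:**
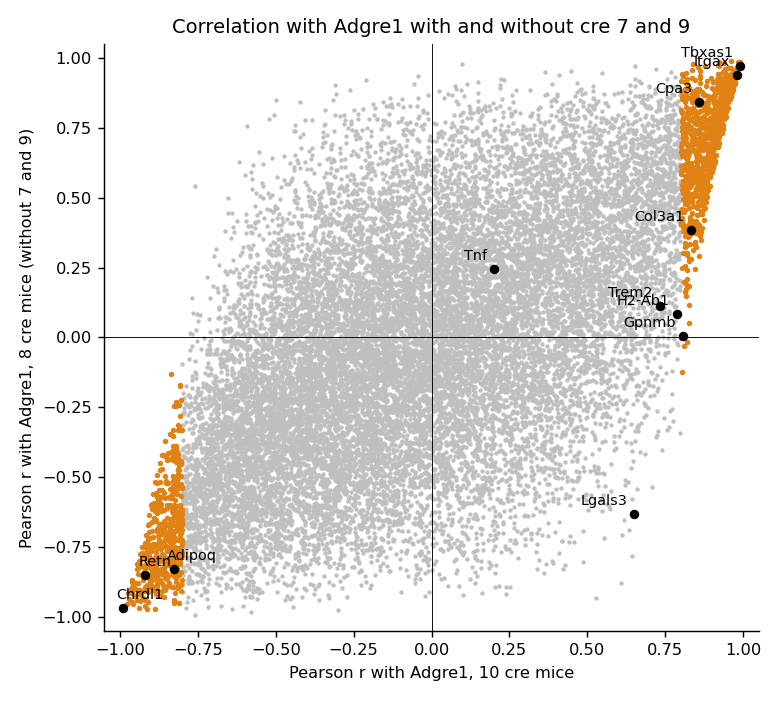
Pearson r with Adgre1 over all 10 cre mice (horizontal) and over 8 cre mice without 7 and 9 (vertical) for 19571 named probe sets. Orange points have an r of 0.8 or more, or −0.8 or less, over 10 mice, and black points are named genes. Tbxas1, Itgax and Chrdl1 stay near the corners, while Gpnmb (0.81 to 0.00) and Lgals3 (0.65 to −0.63) lose the relation without the 2 mice.

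The label was checked with markers of macrophages. Of 17 measured genes of the macrophage list besides Adgre1, all correlated positively and 14 at 0.8 or more (median r of 0.88, against −0.05 over all genes), while Cd68 and Clec7a had no named probe set. Without cre 7 and 9 the median was 0.62 and 4 genes stayed at 0.8 or more. Csf1r, the receptor for the macrophage growth factor CSF1, ranged from 12.06 to 15.03 with a median of 14.41 in cre mice, and its r was 0.96 (Spearman 0.98, and 0.85 over 8 mice). C5ar1, the receptor for complement fragment C5a, had an r of 0.95 (0.89 over 8 mice) and Laptm5, a lysosomal membrane protein of blood cells, 0.95 (0.84). The lowest of the list was Cx3cr1, the fractalkine receptor, with 0.36 (0.76 over 8 mice), and Aif1 had 0.63 (0.20). Adgre1 is also present on eosinophils, whose part in the gradient was not tested. Their receptor gene Ccr3 had an r of 0.65 (0.05 over 8 mice), and Siglecf, Il5ra, Epx and Prg2 had −0.19, −0.23, −0.57 and −0.75 (−0.55, 0.07, −0.33 and −0.35 over 8 mice) at mean signals of at most 4.85 in cre mice. The neutrophil list had a median r of −0.18 with 0 of 9 genes at 0.8 or more (0.06 after renewed quantile normalization, the 1 list of 40 whose median changed sign with the scaling).

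The 15 genes with the highest r (0.97 to 0.99) in the cre mice stayed between 0.91 and 0.99 without cre 7 and 9. Tbxas1, thromboxane synthase, ranged from 9.77 to 13.18 with a median of 12.08 in cre mice and from 11.10 to 13.57 with a median of 11.80 in wt mice. Its 2 lowest cre values were those of cre 9 and 7, and its highest that of cre 4, as for Adgre1. Its r was 0.99 (Spearman 0.99, and 0.97 over 8 mice), with 0.99 log2 units gained per log2 unit of Adgre1. Prkcb, a protein kinase C of leukocytes, ranged from 10.04 to 13.06 (median 11.75; r of 0.99, Spearman 0.98, and 0.99 over 8 mice). Itgax, the integrin CD11c of fat macrophages in obesity, ranged from 8.28 to 12.43 with a median of 11.13, a 17.7-fold span (r of 0.98, Spearman 0.99, and 0.94 over 8 mice; slope 1.25). Btk, the tyrosine kinase downstream of Fc and B cell receptors, ranged from 7.18 to 9.73 (median 9.04; r of 0.98, Spearman 0.98, and 0.96 over 8 mice). In all 4 genes cre 7 and 9 lay below every wt mouse, and the other 8 cre mice overlapped with the wt mice.

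The others of the 15 have varied roles. Sema4d (semaphorin 4D, r of 0.98) and Tlr7 (an endosomal receptor for single-stranded RNA, 0.98) are immune surface or sensor genes. Cybb, the gp91 subunit of the phagocyte NADPH oxidase, had an r of 0.98 and Rab7b, a small GTPase of late endosomes, 0.98. Pik3ap1 (BCAP, an adaptor of phosphoinositide 3-kinase), Apbb1ip (RIAM, an activator of integrins), Plekho2 and the unconventional myosin Myo1e had 0.97 to 0.98. Dusp6, a phosphatase of ERK, B4galt6, which makes lactosylceramide, and Prune2 complete the group, with 0.97 to 0.98.

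Steepness set another group apart. Cpa3, the carboxypeptidase of mast cell granules, had the steepest slope among genes at 0.8 or more, with 1.92 log2 units per unit of Adgre1 (r of 0.86, Spearman 0.75, and 0.84 over 8 mice). It ranged from 7.45 to 12.85 with a median of 10.74 in cre mice, a 42.2-fold span, and from 6.05 to 14.86 with a median of 9.90 in wt mice. Cre 7 had the lowest value and cre 3 the highest, and the genotypes overlapped throughout. The mast cell proteases Mcpt4 (slope 1.63, r of 0.85) and Tpsb2 (1.51, 0.82) were also among the 10 steepest, and both kept their r over 8 mice (0.87 each). Of the other mast cell genes listed, Cma1, chymase, had an r of 0.69 (0.77 over 8 mice), the immunoglobulin E receptor chains Fcer1a and Ms4a2 0.51 and 0.28 (0.64 and 0.61), and the stem cell factor receptor Kit 0.32 (0.79). In wt mice the slopes of Cpa3, Mcpt4 and Tpsb2 were 1.99, 1.63 and 1.82 with standard errors of 0.94, 0.75 and 0.78 and did not pass (limma adjusted p of 0.469, 0.454 and 0.413).

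The remaining steep genes were Nceh1 (slope 1.64), a cholesteryl ester hydrolase of macrophages, Rgs2 (1.55), a regulator of G protein signalling, and Slc37a2 (1.54), a sugar phosphate transporter. Cd72 (1.52), Hpgds, the haematopoietic prostaglandin D synthase (1.50), Fcer1g, the shared signalling chain of Fc receptors (1.50), and C3ar1, the receptor for complement fragment C3a (1.48), complete the 10. Fcer1g ranged from 9.48 to 14.68 with a median of 13.56 in cre mice, where cre 9 was lowest. Over 8 mice the slope of Fcer1g went from 1.50 to 0.53, that of Nceh1 from 1.64 to 0.81, that of Slc37a2 from 1.54 to 0.79 and that of C3ar1 from 1.48 to 0.89. Those of Rgs2, Cd72 and Hpgds were 1.52, 1.46 and 1.45 there, and those of Cpa3, Mcpt4 and Tpsb2 were 2.74, 2.60 and 2.64.

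**Figure D3:**
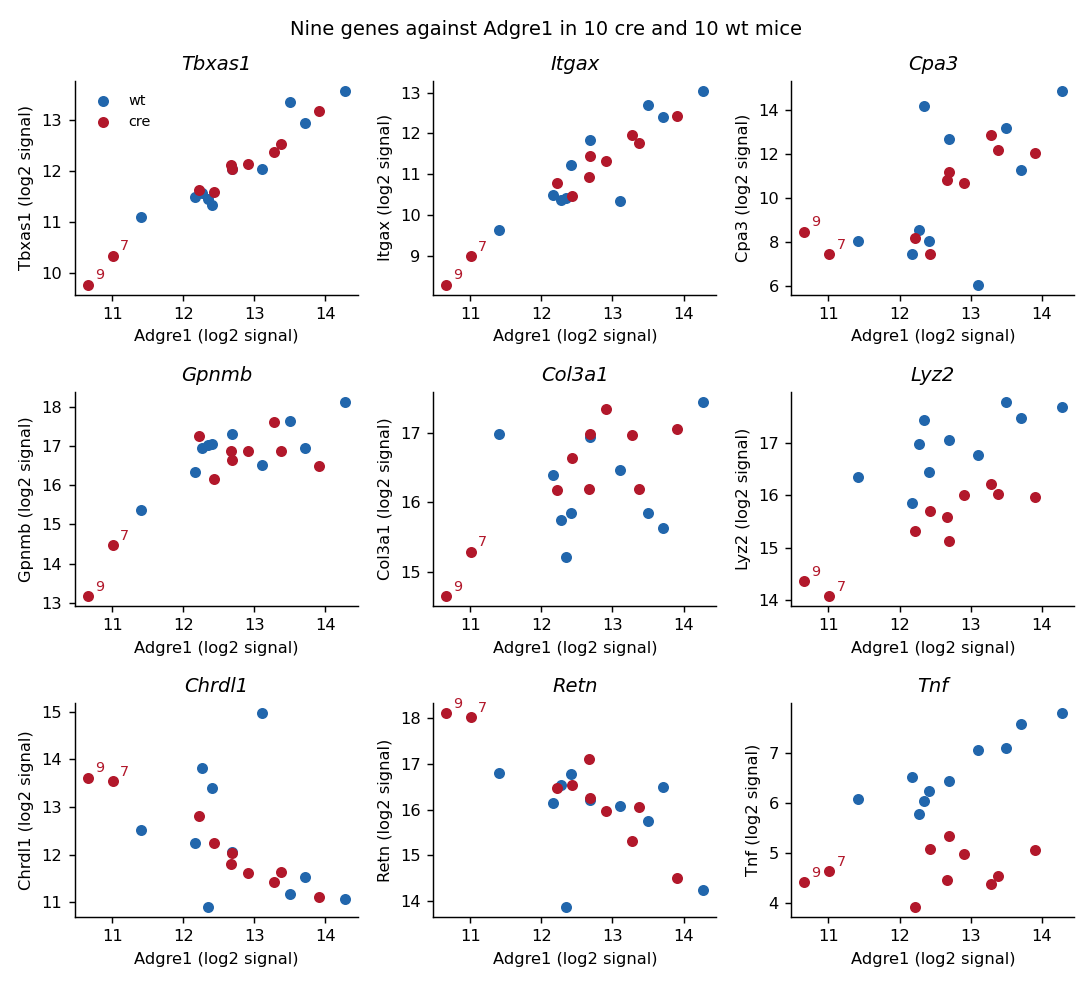
Log2 signal of 9 genes (vertical) against Adgre1 (horizontal), 1 point per mouse, with 10 cre mice in red (7 and 9 numbered) and 10 wt mice in blue. Tbxas1 and Itgax rise along 1 line in both genotypes, Gpnmb and Col3a1 are low in cre 7 and 9 (r of 0.00 and 0.38 over the other cre mice), Chrdl1 and Retn fall, Lyz2 rises at a lower level in cre, and Tnf follows Adgre1 in wt mice.

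Promoter sequences are shown for 4 rising genes because the site read by PU.1 was more frequent in windows of rising genes. PU.1 directs macrophage development and is encoded by Spi1 (r of 0.88, and 0.56 over 8 mice). RefSeq windows of 300 bases (250 before to 50 after the annotated start, GRCm38.p6) were at hand for 706 rising and 397 falling genes and for 15691 named genes in all. The letters GAGGAAGT, on either strand, stood in a window of 8.5% of the rising, 2.77% of the falling and 3.53% of all genes. This motif was singled out after the shares of 12 motifs had been seen. AGAGGAAG, which overlaps it, gave 9.35%, 4.28% and 5.12%, and the ETS core GGAAGT inside it 35.6%, 24.7% and 27.8%. The AP-1 site TGANTCA gave 9.77%, 5.79% and 8.35%, the C/EBP site TTGCNNAA 10.8%, 10.8% and 11.6%, and the E-box CACGTG 10.8%, 10.1% and 9.26%. The TATA box TATAAA gave 11.3%, 11.1% and 14.6% and the E2F site TTTCCCGC 0.567%, 1.01% and 1.69%. The NRF1 site gave 1.42%, 3.27% and 1.56%, and the NF-κB site 0.425% (3 of 706 genes), 0% and 0.172%. TTGCGCAA gave 0.142%, 0.252% and 0.249% and the PPAR direct repeat 0.283%, 0% and 0.433%. Overlapping windows and the base composition of promoters were not taken into account, and a match is only a run of letters.

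The 4 sequences are the 250 bases before the start of genes with 1 window in the table, read 5′ to 3′ on the strand of the gene, with the PU.1 letters or their reverse complement ACTTCCTC in capitals. Inpp5d encodes SHIP1, a lipid phosphatase of blood cells (chr1:87620062-87620311, plus strand; r of 0.96). C1qc encodes a chain of complement C1q (chr4:136892915-136893164, minus strand; 0.95). Rel encodes an NF-κB subunit (chr11:23770970-23771219, minus strand; 0.93), and Nceh1 was described above (chr3:27182754-27183003, plus strand; 0.92). The capitals begin 20, 195, 189 and 73 bases before the start, respectively.
Inpp5d: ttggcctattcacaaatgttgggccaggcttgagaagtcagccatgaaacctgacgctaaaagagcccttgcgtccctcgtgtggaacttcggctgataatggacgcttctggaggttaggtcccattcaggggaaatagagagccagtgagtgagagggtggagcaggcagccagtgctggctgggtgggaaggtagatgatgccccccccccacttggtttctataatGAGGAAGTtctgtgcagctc
C1qc: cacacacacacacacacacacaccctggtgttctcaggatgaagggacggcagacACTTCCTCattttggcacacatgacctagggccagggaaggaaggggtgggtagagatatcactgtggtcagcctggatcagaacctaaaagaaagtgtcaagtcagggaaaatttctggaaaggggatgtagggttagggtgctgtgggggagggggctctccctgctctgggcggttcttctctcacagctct
Rel: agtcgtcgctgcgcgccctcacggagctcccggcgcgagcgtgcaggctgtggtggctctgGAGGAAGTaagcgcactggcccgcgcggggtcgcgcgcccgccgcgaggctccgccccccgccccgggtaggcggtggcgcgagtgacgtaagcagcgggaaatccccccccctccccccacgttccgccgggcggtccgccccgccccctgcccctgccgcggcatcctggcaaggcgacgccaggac
Nceh1: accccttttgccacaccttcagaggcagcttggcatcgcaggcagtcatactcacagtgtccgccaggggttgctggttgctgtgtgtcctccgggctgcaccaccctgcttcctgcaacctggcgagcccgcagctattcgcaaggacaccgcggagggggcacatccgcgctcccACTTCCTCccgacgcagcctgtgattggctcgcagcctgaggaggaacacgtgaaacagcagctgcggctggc

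Of 17 measured lysosomal and proton pump genes, 11 reached 0.8, with a median r of 0.83. Without cre 7 and 9 the median was 0.50 and 1 of 17 reached 0.8. The list was led by the pump subunit Atp6v1a (0.95, and 0.91 over 8 mice) and the hexosaminidase subunit Hexa (0.92, and 0.77). The master regulator Tfeb had −0.43 over 10 mice, the lowest of the list, and 0.50 over 8. Npc2, a carrier of cholesterol in lysosomes, had 0.37 and −0.81. Of 11 oxidase and Fc receptor genes, 6 reached 0.8 over 10 mice and 2 over 8 (medians of 0.82 and 0.44), among them Btk, the oxidase subunit Ncf1 (0.97, and 0.90) and the Fc receptor Fcgr3 (0.92, and 0.70). Cybb ranged from 12.99 to 15.87 with a median of 14.94 in cre mice, and cre 7 and 9 lay below every wt mouse.

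Of 9 measured complement genes, 4 reached 0.8 over 10 mice and 1 over 8 (medians of 0.77 and 0.43). The 3 chains of C1q, C1qa, C1qb and C1qc, had r of 0.92, 0.94 and 0.95 (0.77, 0.78 and 0.83 over 8 mice) and the receptor C3ar1 0.94 (0.79). C1qc ranged from 10.26 to 14.83 with a median of 13.83, a 23.7-fold span, with 3 cre mice below every wt mouse. The inhibitor Serping1 had 0.77 (0.43 over 8 mice) and properdin, Cfp, 0.32 (−0.48). Of the convertase components, C4b had 0.33 (0.10), Cfb −0.40 (−0.46) and C2 −0.56 (−0.02).

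Among chemokines, Ccl3 had an r of 0.96 (0.86 over 8 mice), Cxcl16, which is also a scavenger receptor, 0.93 (0.77), Ccl6 0.91 (0.69) and Ccl9 0.88 (0.51), and these 4 were the only ones of 16 at 0.8 or more over 10 mice. Ccl3 alone was over 8. Ccl3, which attracts monocytes, ranged from 6.12 to 9.74 with a median of 8.98 and was lowest in cre 9. Ccl2, the ligand of the monocyte receptor CCR2, had 0.35 (0.06 over 8 mice) and the neutrophil attractants Cxcl1 and Cxcl2 −0.06 and −0.13 (−0.42 and −0.12). The monocyte list had a median of 0.39 with 0 of 10 genes at 0.8, from Cd177 (−0.10) to the proteoglycan gene Vcan (0.70). The dendritic cell list had −0.11 with 0 of 10, from Batf3 (−0.53) to Xcr1 (0.49). All its genes but Ccr7 had low mean signals, 4.62 to 6.38 in cre mice.

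Of 17 proliferation genes, 7 were at 0.8 or more over 10 cre mice, with a median of 0.77. Over 8 mice 1 was, Pcna, with a median of 0.45. Pcna, the DNA polymerase clamp, led the list with 0.95 (Spearman 0.88, and 0.90 over 8 mice), from 13.67 to 15.50 with a median of 15. Cre 9 was its lowest mouse and the only one below the wt mice. The mitotic checkpoint kinase Bub1 had 0.90 and Plk1 0.86 (0.69 and 0.57 over 8 mice), and Ube2c had −0.09 (−0.05).

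Of 22 genes of the TNF and NF-κB list, 3 reached 0.8: Rel (0.93, and 0.85 over 8 mice), the TNF receptor Tnfrsf1b (0.89, and 0.57) and the adhesion gene Vcam1 (0.87, and 0.57). The list median was 0.59 (0.30 over 8 mice). The feedback inhibitors Nfkbia and Tnfaip3, which NF-κB induces, had −0.09 and 0.24, and Il6 had −0.43 (0.41, 0.44 and 0.20 over 8 mice). Over 8 mice 1 of the 22, Rel, was at 0.8 or more. Interferon-stimulated genes did not follow Adgre1 in cre mice, with a median of −0.23, 0 of 16 at 0.8 or more and 0 at −0.8 or less, from Ifit2 (−0.74) to Oas1a (0.59). Over 8 mice the median was 0.07.

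Among the cre mice, the correlation with Adgre1 of several groups linked to fat macrophages in obesity was weaker without the 2 low mice. It was also weaker in batch 2 alone. The median r of the lipid-associated list was 0.965 in batch 1, which held both low mice, and 0.10 in batch 2. Of 15 lipid-associated macrophage genes, 7 reached 0.8 (median 0.78), but over 8 mice the median was 0.15 and 2 reached it, Itgax and Dcstamp, a fusion protein of osteoclasts and giant cells (0.92). Gpnmb, a lysosomal glycoprotein, ranged from 13.18 to 17.61 with a median of 16.76 and had 14.47 and 13.18 in cre 7 and 9. The other 8 mice lay between 16.15 and 17.61, and r went from 0.81 to 0.00. Trem2, the lipid receptor of these cells, went from 0.73 to 0.11 and ranged from 8.79 to 11.95 with a median of 10.59. Lgals3, galectin 3, went from 0.65 to −0.63, the metalloprotease Mmp12 from 0.82 to 0.15, and Fabp5, a fatty acid carrier, from −0.01 to −0.91. In wt mice, tested below, 14 of these 15 genes had a positive slope on Adgre1, with a median of 0.67. There 11 rose at an unadjusted limma p under 0.05, against 1456 of all 19571 named probe sets. At an adjusted p under 0.05 there were 2, against 106 of all (0.542%). These wt figures are over all 10 wt mice, without the removal of mice made in cre.

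Major histocompatibility class II genes went the same way. Of 9, only H2-Aa reached 0.8 (0.85, and 0.46 over 8 mice), and the list median went from 0.71 to 0.15. It was 0.89 in batch 1 and 0.14 in batch 2. H2-Ab1 ranged from 13.01 to 15.45 with a median of 14.82, and its r went from 0.79 to 0.08. Matrix genes had a median of 0.55 over 10 mice and −0.05 over 8, with 0.79 in batch 1 and −0.02 in batch 2. The fibrillar collagen Col3a1 ranged from 14.65 to 17.34 with a median of 16.42 and was lowest in cre 9 and 7 (r of 0.83, and 0.38 over 8 mice), and the inhibitor Timp1 went from 0.76 to −0.05. In all 10 wt mice all 9 class II genes had a positive slope on Adgre1 (median 0.64). Of these, 8 had an unadjusted limma p under 0.05, against 1456 rising of all 19571 named probe sets. Of 21 matrix genes 12 had a positive wt slope (median 0.04). In both lists 0 genes had an adjusted p under 0.05.

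Genes of resident and alternatively activated macrophages did not move as 1 group (median 0.23). Egr2, a transcription factor, Folr2, a folate receptor, Maf and Mrc1, the mannose receptor, had r of 0.92, 0.88, 0.87 and 0.86 (0.80, 0.64, 0.79 and 0.58 over 8 mice). Lyve1, Timd4 and Clec10a had −0.24, −0.18 and −0.07 (−0.42, −0.37 and 0.06). Retnla, which encodes the secreted protein RELM alpha, fell with Adgre1, with an r of −0.85 (−0.81 over 8 mice). It ranged from 12.35 to 15.13 with a median of 14.06, highest in cre 9 and lowest in cre 4, the reverse of Adgre1. T and NK cell genes had a median of 0.38, and 1 of 13, the interleukin 7 receptor Il7r (0.86, and 0.44 over 8 mice), reached 0.8. B and plasma cell genes had 0.18 and 0 of 10.

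**Figure D4:**
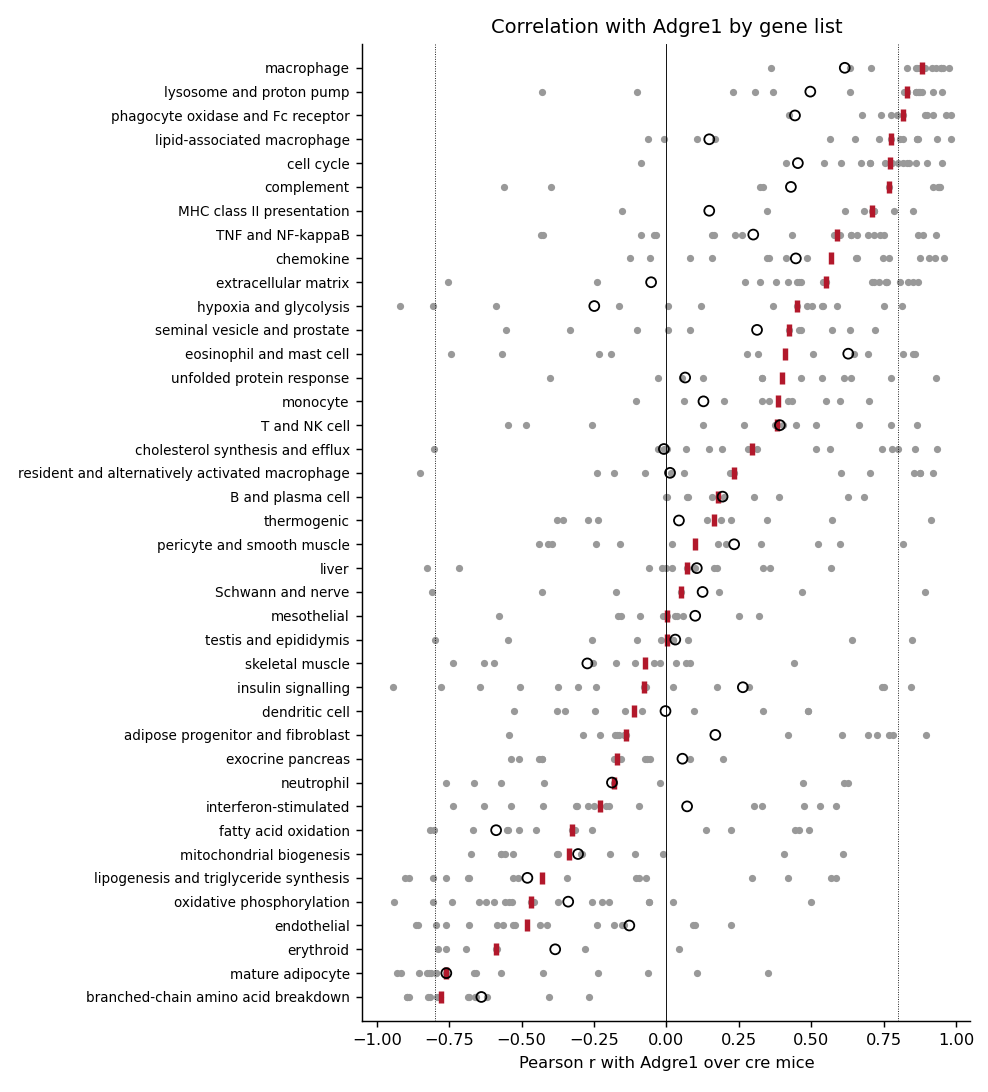
Pearson r with Adgre1 over 10 cre mice of each measured member (grey points) of 40 gene lists, with the list median as a red bar and the median over 8 mice without cre 7 and 9 as an open circle. Dotted lines mark −0.8 and 0.8. Macrophage, lysosome and oxidase genes are at the top, adipocyte and branched-chain amino acid genes at the bottom, and the medians of the lipid-associated, class II and matrix lists lie near 0 without the 2 mice.

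On the falling side, Chrdl1, an antagonist of bone morphogenetic proteins, had the lowest r, −0.99 (Spearman −1, and −0.97 over 8 mice). It ranged from 11.12 to 13.61 with a median of 11.92 in cre mice and from 10.90 to 14.97 with a median of 12.15 in wt mice. Its highest cre values were those of cre 9 and 7 and its lowest that of cre 4, the reverse of Adgre1, and the genotypes overlapped. The Spearman value is that of levels centred within batches. The other 14 genes of lowest r had −0.98 to −0.95, and over 8 mice all 15 had −0.97 to −0.87. They included Clmn (−0.98), the DNA repair endonuclease Ercc5 (−0.97), the imprinted transcript Ipw, Palmd and the G protein subunit Gnai1 (−0.96). The tight junction scaffold Tjp1, the mitochondrial glutaredoxin Glrx5, the hypoxia-inducible factor Epas1, the adipose phospholipase Plaat3 and the superoxide dismutase Sod1 had −0.96, −0.96, −0.95, −0.95 and −0.95. Zfand3, Tmeff1, Scrn3 and the potassium channel Kcns3 complete the 15.

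Of 17 mature adipocyte genes, 15 correlated negatively and 6 reached −0.8, with a median of −0.76 over 10 mice and the same over 8. Adipoq, adiponectin, ranged from 18.63 to 19.57 with a median of 19.12 in cre mice and 17.38 to 19.29 with a median of 19.02 in wt mice (r of −0.83 in cre, and −0.83 over 8 mice). Cre 3 had the lowest and cre 7 the highest value, and 4 cre mice lay above every wt mouse. Retn, resistin, ranged from 14.49 to 18.12 with a median of 16.37, highest in cre 9 and 7 and lowest in cre 4 (r of −0.92, Spearman −0.98, and −0.85 over 8 mice; slope −1.003). Plin4, a lipid droplet coat protein, had −0.93 (−0.85 over 8 mice), the retinol carrier Rbp4 −0.86 (−0.86) and the triglyceride lipase Pnpla2 −0.81 (−0.88). Lep, leptin, was the exception with the highest r of the list, 0.35 over 10 mice and −0.27 over 8. It ranged from 16.89 to 18.88 with a median of 18.32, and cre 9 was its lowest mouse.

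In the list for mitochondrial breakdown of branched-chain amino acids, all 15 genes correlated negatively, 5 at −0.8 or less, with a median of −0.78 (−0.64 over 8 mice). Pccb, a propionyl-CoA carboxylase subunit, had −0.90 (−0.61 over 8 mice), Aldh6a1, the methylmalonate semialdehyde dehydrogenase, −0.89 (−0.84) and Hibadh −0.89 (−0.85). Aldh6a1 ranged from 12.22 to 14.39 with a median of 13.48, and 5 cre mice lay above every wt mouse. Respiratory chain genes had a median of −0.47 with 2 of 19 at −0.8 or less, the complex I subunit Ndufv1 (−0.94, and −0.85 over 8 mice) and Cox4i1 (−0.81, and −0.60). Fatty acid oxidation genes had −0.33, and −0.59 over 8 mice, with 2 of 15 at −0.8 or less over 10 mice, Etfa and Hadh.

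Of 16 lipogenic genes, 3 reached −0.8: Pck1, the glyceroneogenic kinase (−0.90, and −0.81 over 8 mice), Thrsp (−0.89, and −0.81) and Gpam (−0.80, and −0.22). Pck1 ranged from 13.64 to 17.57 with a median of 14.49, a 15.3-fold span with cre 9 at the top, and its slope of −1.33 was among the steepest. Cyp2e1 (−1.52), the salivary amylase gene Amy1 (−1.20), Chst1 (−1.14), the imprinted genes Nnat (−1.10) and Peg3 (−1.07), Dtna (−1.03), Ces1d (−1.01) and Fam13a (−0.99) were the others of the 10 steepest beside Retn. Cyp2e1 had the lowest r of the liver list (−0.83), and the part of liver RNA in its fall was not tested. Dtna and Fam13a weakened most without the 2 low mice, with r of −0.17 and −0.45 over the other 8. There Cyp2e1, Ces1d, Peg3 and Amy1 had −0.51, −0.57, −0.69 and −0.78, and Nnat and Chst1 −0.86 and −0.89.

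Vessel genes tended to the falling side, with 15 of 18 negative, a median of −0.48 (−0.13 over 8 mice) and 2 at −0.8 or less, the junction gene Cldn5 (−0.87, and −0.70) and Gpihbp1 (−0.86, and −0.71), which anchors lipoprotein lipase. Cldn5 ranged from 9.03 to 11.21 with a median of 10.60, highest in cre 9. Vegfa, the vessel growth factor, had −0.92 (−0.77 over 8 mice) and ranged from 11.65 to 13.93 with a median of 12.23. Of the insulin signalling list, Pde3b, the phosphodiesterase through which insulin restrains lipolysis, had −0.94 (−0.83 over 8 mice), Irs1 −0.78 (−0.44) and Akt1 0.84 (0.73). Prox1, which directs lymphatic vessels, had the highest r of the vessel list, 0.22 (0.43 over 8 mice).

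Cholesterol synthesis and efflux genes had a median r of 0.30 (−0.01 over 8 mice), with 3 of 16 at 0.8 or more and 1 at −0.8 or less, from the squalene synthase Fdft1 (−0.80, and −0.84) to the efflux pump Abcg1 (0.93, and 0.75). Hypoxia and glycolysis genes had 0.45 (−0.25), with 1 of 15 at 0.8 or more, the pyruvate kinase Pkm (0.81, and 0.50), and 2 at −0.8 or less. Unfolded protein response genes had 0.40 (0.06), with 1 of 12 at 0.8 or more, the stress factor Atf3 (0.93, and 0.73), and Ddit3 lowest at −0.40. Progenitor and fibroblast genes had −0.14 (0.17), with 1 of 15 at 0.8 or more, the proteoglycan gene Lum (0.90, and 0.61), and pericyte and smooth muscle genes 0.10 (0.23), with 1 of 12, Cspg4 (0.82, and 0.38). Thermogenic genes had 0.17 (0.04), with 1 of 10 at 0.8 or more, Otop1 (0.91, and 0.65), and mitochondrial biogenesis genes −0.34 (−0.31), from Mfn2 (−0.68), which fuses mitochondria, to the transcription factor Nrf1 (0.61). Genes of mesothelium, testis and epididymis, and Schwann cells had medians of 0.00, 0.00 and 0.05, and those of skeletal muscle and exocrine pancreas −0.07 and −0.17. The seminal vesicle and erythroid lists had medians of 0.43 and −0.59 (0.31 and −0.38 over 8 mice), with 0 of 11 and 0 of 7 genes at 0.8 or −0.8.

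The same gradient was then tested in the 10 wt mice, which had no part in choosing the genes. Each probe set was fitted on Adgre1 and batch with limma and p-values were adjusted over 22205 probe sets (Benjamini-Hochberg). Of the 861 genes, 824 (95.7%) had a positive slope in wt mice, against 47.2% of all named probe sets, and of the 486 falling genes 432 (88.9%) had a negative one, against 52.8%. The median slope of the rising genes was 0.57 in cre and 0.46 in wt, and that of the falling genes −0.41 and −0.24. The genes were selected for a high r in cre, which steepens their cre slopes, so these medians do not compare the genotypes. The fit called 106 rising (0.542%) and 4 falling (0.0204%) named probe sets past an adjusted p of 0.05. Among the 861 genes 89 (10.3%) were called rising, and among the 486 genes 0 were called falling. At an unadjusted p under 0.05, 92 of the 486 fell, against 780 of all 19504 genes. Conversely 89 of the 106 genes called in wt (84%) had an r of 0.8 or more in cre and all 106 a positive one. Across all 19571 probe sets the slopes of the genotypes correlated with 0.62 (Pearson) and 0.48 (Spearman), a description over genes, which are not independent.

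The wt calls depended on single mice. The count over all 22205 probe sets was 119 rising and 4 falling (0.536% and 0.018%), 0 rising without wt 2, 3, 5, 7 or 9, 7 without wt 4, 44 without wt 1, 48 without wt 8 and 357 without wt 6, and 0 without the 2 wt mice farthest from the median Adgre1. The 4 called as falling were Ascl3, Nkd1, Cgnl1 and Cdr1, with r of 0.29, −0.03, −0.73 and −0.78 in cre. Wt 6 had the lowest adipocyte mean (13.75) and a seminal vesicle mean of 13.51, against at most 6.58 in any cre mouse. Without wt 6, 206 probe sets were called falling. Wt 4 had a liver list mean of 14.29, against a next wt value of 11.47. Its exocrine pancreas mean was 6.46, against a next wt value of 5.27. The part of these tissues in the wt counts was not tested.

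Gene by gene, the leading rising genes had like slopes in wt mice. Of the 15 with the highest r in cre, 8 were called. Tbxas1 had a slope of 0.98 (SE 0.12, limma adjusted p = 0.0245), Myo1e 1.12 (SE 0.14, 0.0245) and Cybb 0.85 (SE 0.13, 0.0317). Itgax had 1.22 (SE 0.21, 0.0417) and Btk 0.87 (SE 0.16, 0.045). C5ar1, C3ar1, Nceh1, Fcgr3, Spi1, Lipa and Tnfrsf1b were called as well, with slopes from 0.61 to 0.95. Tlr7 was not called (0.51, SE 0.36, adjusted p of 0.664), although its slope in cre was 1.18. None of the 15 genes with the lowest r was called (adjusted p of 0.297 to 0.88), and neither were Adipoq, Retn, Pck1 or Aldh6a1 (slopes of −0.30, −0.48, −1.09 and −0.42, adjusted p of 0.715, 0.657, 0.525 and 0.619).

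**Figure D5:**
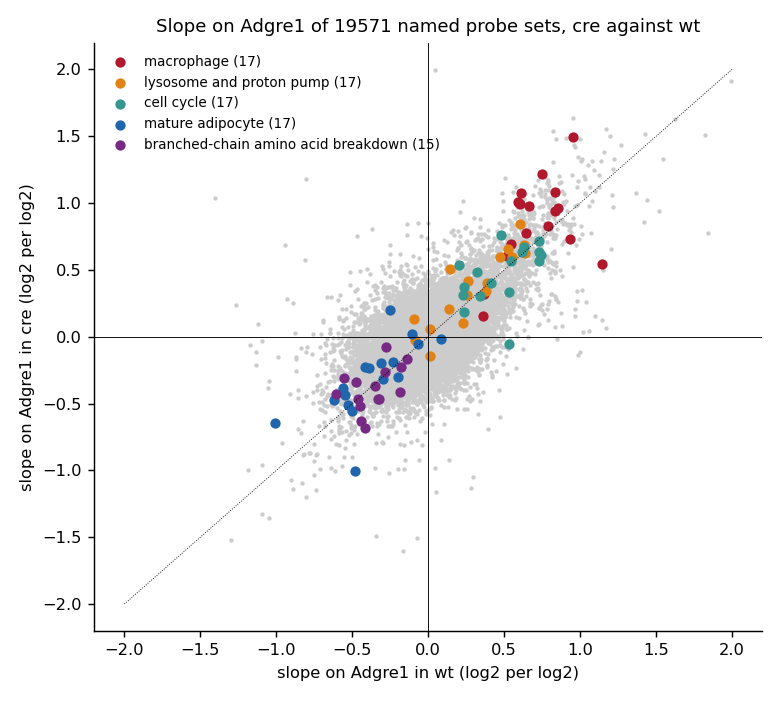
Slope on Adgre1 in cre mice (vertical) against that in wt mice (horizontal), both in log2 units per log2 unit, for 19571 named probe sets in grey and 5 gene lists in colour with the number of measured genes. The dotted line marks equal slopes. Macrophage, lysosome and cell cycle genes lie mostly at the upper right, adipocyte and branched-chain amino acid genes at the lower left.

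No gene passed a direct test of the difference between the slopes of the genotypes. With an interaction of genotype and Adgre1 in limma, 0 of 22205 probe sets passed (0%), and 684 (3.08%) had an unadjusted p under 0.05. In data of this size simulated with independent noise for each probe set, 66.2% of slope differences of 1 and 13.5% of those of 0.5 were recovered. Smaller differences could thus be missed. Leaving out Gm genes, Rik clones and probe sets below the median brightness, the smallest p belonged to Otop1, a proton channel. It had a slope of 0.85 in cre and −0.14 in wt (difference 0.98, SE 0.23, unadjusted p = 0.000378, limma adjusted p = 0.9999). Tnfrsf12a, the receptor for TWEAK, had 0.74 and −0.01, Cela1 0.06 and −0.65, Lmtk2 −0.01 and −0.50, and Nkd1 −0.01 and −0.60. In the other direction Zfp622 had −0.37 in cre and 0.16 in wt, Zc3h6 −0.33 and 0.19, Rasal3 0.26 and 0.85, Ppp1r8 −0.35 and 0.12, and Kin −0.38 and 0.10.

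Tnf, the floxed gene, was measured along the same gradient. The labels do not say which part of the gene is floxed, and whether its probe set reads the deleted part is therefore not known here. In wt mice it ranged from 5.78 to 7.80 with a median of 6.48, and in cre mice from 3.91 to 5.34 with a median of 4.58, so that the groups did not overlap. In wt mice Tnf rose with Adgre1 (r of 0.91, exact permutation p = 0.00201, adjusted over 2 relations 0.00403; Spearman 0.82, exact p = 0.0135, adjusted 0.0201). It was called by limma too (slope 0.72, SE 0.13, adjusted p = 0.045). In cre mice the slope was 0.09 (r of 0.20, Spearman 0.13, and 0.25 over 8 mice). The difference of −0.63 (SE 0.21) had an unadjusted p of 0.00596 and a limma adjusted p of 0.9999, so a change of slope was not shown over all probe sets. All cre values of Tnf lay below the median signal of every array, and the wt median of 6.48 was close to those medians. Whether so dim a signal could show a rise in cre mice was not tested. Without the 2 wt mice farthest from the median Adgre1 the wt r was 0.77 (exact p = 0.0677).

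Lyz2, the lysozyme gene that carries the Cre insertion in the LyzM-Cre line, followed Adgre1 in both genotypes at a lower level in cre. It ranged from 14.08 to 16.22 with a median of 15.64 in cre mice and from 15.85 to 17.78 with a median of 17.02 in wt mice, and 6 cre mice lay below every wt mouse. Its r was 0.92 in cre (Spearman 0.89, and 0.75 over 8 mice). In wt it was 0.74 (exact permutation p = 0.0259, adjusted 0.0259; Spearman 0.79, exact p = 0.0201), and 0.65 without the 2 farthest wt mice (exact p = 0.115). Within wt batches it was 0.90 (exact p = 0.05) and 0.53 (exact p = 0.367), where 5 mice are few. The wt slope of 0.54 (SE 0.17) was not called over all probe sets (limma adjusted p = 0.241).

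Between mice of equal Adgre1, 2 of 22205 probe sets (0.00901%) differed between genotypes, the floxed gene and the gene that carries Cre. The difference of cre from wt was −1.89 for Tnf (SE 0.20, limma adjusted p = 0.000143) and −1.37 for Lyz2 (SE 0.17, 0.000772). At an unadjusted p under 0.05 there were 1470 (6.62%). Without the Adgre1 term 1 of 22206 probe sets passed (0.0045%), Tnf, and Lyz2 had an adjusted p of 0.176. Each batch alone gave 0 calls, and without the 2 mice of each genotype farthest from the median Adgre1 1 was left. Of the 861 rising genes 1, Lyz2, and of the 486 falling genes 0 differed at equal Adgre1. The next genes, leaving out Gm genes, Rik clones and probe sets below the median brightness, did not pass. On the lower side they were Cfp, properdin (−0.77, adjusted p of 0.21), Bst2, Hcfc1r1 and Rnf31 (−0.60, −0.73 and −0.64, adjusted p of 0.343 to 0.425). On the higher side they were Neil3, Dync1li2, Adamts5, Timm22 and Ddx17 (0.66, 0.55, 0.83, 0.57 and 0.55, adjusted p of 0.343 to 0.687).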

How the data were processed

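Epididymal fat pads of 10 wt and 10 cre mice were measured on 1 expression array each. The deposited values are log2 signals per probe set, which the authors made with RMA in Transcriptome Analysis Console 4.0.2.15 with the mm10 build, per the submitters' processing notes. Not given in the sources used here are its background settings and any batch adjustment. Medians of the arrays ran from 6.49 to 6.58, correlations between arrays between 0.934 and 0.989, and no 2 arrays were identical. The number of arrays limits the precision, and p-values measure the spread between these mice.

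Group, batch and replicate came from the sample titles. The platform annotation gave 19572 of 22206 probe sets 1 symbol, 0 several and 2634 none; all symbols were matched to RefSeq (GRCm38.p6) by gene number. Each of 19505 genes was read from its brightest probe set. Of 582 genes in 40 lists, 532 were measured, and 10 genes stood in more than 1 list. The members and lists were chosen with earlier results of these data known.

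Correlations and slopes in cre used values centred within batches. Slopes in wt, slope differences (genotype by Adgre1, with batch within genotype) and genotype at equal Adgre1 were tested with limma 3.58.1 in R 4.3.3 with Benjamini-Hochberg adjustment at 0.05. The fit was checked on 10 simulated data sets with 200 changed probe sets: wt slopes of 1 and 0.5 were recovered in 79.3% and 19.2%, and 4.09% of the calls were false. For the slope difference 6.35% of the calls were false. The simulated noise was independent between probe sets, whereas real probe sets vary together, so these shares may not hold for the measured data. Single values were tested by exact two-sided permutation within batches (63504 regroupings of genotype, 14400 pairings in wt). Python 3.11.15, NumPy 2.4.6, SciPy 1.17.1, statsmodels 0.14.6, pandas 2.3.3 and matplotlib 3.10.9 were used.

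The rule for named genes took Adgre1, Tnf and Lyz2, the first 5 genes of each list and its highest and lowest r, the 15 genes of highest and lowest r, the 10 steepest slopes in each direction, and the 5 smallest p in each direction of both genotype tests, leaving out predicted Gm genes, Rik clones and probe sets below the median brightness. Not all of them are printed, and other genes were singled out after their values were seen.

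Also run were fits without a batch term and within single batches, with Csf1r or the macrophage list mean as index, renewed quantile normalization, median centring, no dim probe sets, Spearman, other thresholds, a trended prior, the replicate number as a block, and mice left out singly, as the 2 farthest from the median Adgre1 or for other-tissue RNA.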

Additional observations from a re-analysis of the deposited data

Results flagged for a closer look

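Of 68 sets of 10 mice examined (34 genes in 2 genotypes), 3 held a mouse set apart from the others by a gap larger than Dixon's 95% limit, where chance alone gives about 1 in 20. Alas2, a haem synthesis enzyme of red-cell precursors, read 15.48 in cre 9 against a next value of 11.36. Lep, leptin, read 16.89 in cre 9 against a next value of 17.97. Lep also read 15.67 in wt 6 against a next value of 17.20. Leptin is made by adipocytes, and wt 6 had the lowest mean of the adipocyte list (13.75) of all wt mice, whereas cre 9 had 16.03 in a cre range of 15.26 to 16.20. The r of Lep with Adgre1 in cre was 0.35 with this mouse among the 10 and −0.27 over the 8 mice without cre 7 and 9.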

How the results depend on the processing

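The counts of rising and falling genes in cre (861 and 486) stayed within 1.5 times under 9 of 13 other settings each. The rising count was 493 without the 2 mice of each genotype farthest from the median Adgre1, 2283 in batch 1 alone, 1496 at an r of 0.7 and 282 at 0.9. The falling count was 2185 and 1286 in batches 1 and 2 alone, where 5 mice reach a high r easily, and 1166 at −0.7 and 83 at −0.9. Leaving out single mice gave 671 to 1082 rising and 489 to 711 falling genes. Of 40 list medians 1 changed sign with the scaling, and of 50 named genes of highest r or slope 0 did.

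The wt counts (119 rising, 4 falling) moved most. They were 349 and 47 with the macrophage list mean as index, 4 and 0 with Csf1r, 8 and 0 after renewed quantile normalization and 274 and 28 at an adjusted p of 0.1. In batch 1 alone they were 19 and 1, in batch 2 alone 0 and 0, and without the 2 farthest mice 0 and 0. The falling count was 13 without a batch term and 41 without mice set apart by other-tissue RNA. Leaving out wt 5 and 6, chosen after seeing the data for their low adipocyte genes, gave 0 and 0, and single wt mice 0 to 357 and 0 to 206. The cause was not tested.

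No setting gave a slope difference (0 to 0 calls without single mice). Genotype at equal Adgre1 gave 1 call without the 2 farthest mice, 0 in batch 1 alone, 0 in batch 2 alone and 2 to 3 without single mice (3 without wt 8 or cre 6). The relation to Adgre1 in wt was weaker for Tnf without the 2 farthest mice (0.768) and for Lyz2 without them (0.647) and in batches 1 and 2 alone (0.898 and 0.534), alternatives added after seeing the data. The Adgre1 difference was −0.416 to −0.076 without single mice.

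The replicate block gave an Adgre1 difference of −0.277 (exact sign-flip p = 0.559), 0 slope differences and 2 calls at equal Adgre1. Deviations of same-numbered mice correlated from −0.303 to 0.339, with 4 of 10 pairs over 0.1, so the numbers were not taken to pair mice.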
